A study of Homo sapiens with 6 samples.

Results

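The enzymes examined are the 10 that make serine and pass its carbon into folate: PHGDH, PSAT1 and PSPH, which synthesise serine in the cytosol; SHMT2, MTHFD2, MTHFD1L and ALDH1L2, which act on serine and folate in mitochondria; and SHMT1, MTHFD1 and ALDH1L1, which act on them in the cytosol. Their probe sets were taken wherever the platform annotation gave exactly 1 gene, which left 21 of the 41751 probe sets in the table and 10 of 18338 genes. Another 5 probe sets that the annotation shares between an enzyme and other genes were left out: 2 for SHMT1, 2 for MTHFD1L and 1 for PHGDH. MTHFD1L and PHGDH were therefore each read by 1 probe set.

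Transcripts were measured in a stable HEK293 line that carries a myocilin vector and in a stable HEK293 line that carries the control vector, each measured on 3 Affymetrix HG-U133 Plus 2.0 arrays. HEK293 cells are a long-established line from human embryonic kidney. Both lines carry the Tet-On system, which switches an inserted gene on when doxycycline is added. The protocol text, identical for both lines, mentions doxycycline at 0.2 or 1 µg/ml for 48 h without tying a dose to an array, and a note on doxycycline stands beside the myocilin arrays alone. Each line was sampled as 1 stable line, so what the vector does and what else differs between the lines cannot be told apart, and p-values measure the spread between arrays that may be technical replicates. Values are log2 and centred by probe set, so a value is a position relative to an unstated reference level, not a level. Whether an enzyme was expressed above background, and which enzyme was the more abundant, cannot be read from them. In a bulk RNA sample, fewer cells that express a gene and less RNA per cell cannot be told apart.

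Serine is built from the glycolytic intermediate 3-phosphoglycerate by oxidation, transamination and dephosphorylation. Serine hydroxymethyltransferases then split serine into glycine and a one-carbon unit carried by tetrahydrofolate. In most proliferating cells the mitochondrial enzymes oxidise that unit to formate, which leaves for the cytosol and is used there to make purines and thymidylate. Several of these genes are known targets of ATF4, the transcription factor of the amino acid response, which binds with C/EBP partners.

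MYOC, the gene in the vector, read 0.21, 0.20 and 0.24 in the myocilin line, against -6.71, -8.32 and -8.29 in the control line. Over all probe sets the arrays had standard deviations of 0.169 to 0.197 and medians of 0. Correlations over probe sets were 0.513 to 0.608 among myocilin arrays and 0.409 to 0.464 among control arrays. Over all 18338 genes, 15.6% passed a limma adjusted p of 0.05, with 7.35% lower and 8.28% higher in the myocilin line, which is the background for the counts of enzymes and of the pathway lists.

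Promoters of 7 of the enzymes were found in RefSeq's table and searched for the element TGATGNAAN, which ATF4 and C/EBP partners bind. MTHFD1L held it and the other 6 did not, and 4.45% of all 27305 genes in the table held it in at least 1 window. The windows below run from 250 bases before to 50 after the RefSeq start in GRCh38.p14, each written along the gene's own strand. They show the 3 enzymes with a window whose transcript fell, PSAT1, PHGDH and MTHFD2, and then MTHFD1L and MTHFD1, which did not pass the test. Capitals mark matches to TGATGNAAN or to CACGTG, the E-box that MYC can bind, and a sequence with no capitals held neither on either strand.
PSAT1, chr9:78296875-78297174, plus strand: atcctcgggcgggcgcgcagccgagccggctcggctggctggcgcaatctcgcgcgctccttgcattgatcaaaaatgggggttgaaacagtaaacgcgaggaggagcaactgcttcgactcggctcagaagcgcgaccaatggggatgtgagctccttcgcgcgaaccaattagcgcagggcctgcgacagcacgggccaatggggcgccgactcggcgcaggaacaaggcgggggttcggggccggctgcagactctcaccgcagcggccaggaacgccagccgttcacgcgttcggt
PHGDH, chr1:119711684-119711983, plus strand: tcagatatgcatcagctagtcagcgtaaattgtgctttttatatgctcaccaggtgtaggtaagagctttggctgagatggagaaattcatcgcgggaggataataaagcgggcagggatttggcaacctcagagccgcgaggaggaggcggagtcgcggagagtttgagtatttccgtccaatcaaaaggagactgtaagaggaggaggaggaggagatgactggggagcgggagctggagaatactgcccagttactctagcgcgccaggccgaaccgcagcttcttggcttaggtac
MTHFD2, chr2:74198365-74198664, plus strand: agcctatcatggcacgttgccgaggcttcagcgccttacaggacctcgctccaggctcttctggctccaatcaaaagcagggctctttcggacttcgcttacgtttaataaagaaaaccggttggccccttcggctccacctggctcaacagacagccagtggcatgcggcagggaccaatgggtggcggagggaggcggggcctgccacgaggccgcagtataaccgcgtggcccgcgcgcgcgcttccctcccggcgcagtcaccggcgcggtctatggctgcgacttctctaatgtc
MTHFD1L, chr6:150866236-150866535, plus strand: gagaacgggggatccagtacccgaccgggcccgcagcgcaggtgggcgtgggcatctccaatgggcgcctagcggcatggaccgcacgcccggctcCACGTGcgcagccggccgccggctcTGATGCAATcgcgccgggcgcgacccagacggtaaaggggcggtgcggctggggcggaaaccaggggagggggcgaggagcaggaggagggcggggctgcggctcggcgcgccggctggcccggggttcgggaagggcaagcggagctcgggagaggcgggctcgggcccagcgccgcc
MTHFD1, chr14:64388103-64388402, plus strand: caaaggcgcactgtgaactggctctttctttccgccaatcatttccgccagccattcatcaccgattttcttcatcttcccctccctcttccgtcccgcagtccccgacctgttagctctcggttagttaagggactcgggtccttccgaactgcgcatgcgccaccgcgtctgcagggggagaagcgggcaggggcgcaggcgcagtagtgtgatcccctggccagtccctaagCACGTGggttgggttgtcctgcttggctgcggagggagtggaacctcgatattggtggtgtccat
The MTHFD1L window held TGATGCAAT at 129 to 121 bases before the start and an E-box at 154 to 149 bases before it, and these do not overlap. MTHFD1 held an E-box at 15 to 10 bases before its start. Of 35116 promoter windows of 300 bases, 3.61% held TGATGNAAN and 7.26% held CACGTG on either strand. The window of SHMT1 and both windows of ALDH1L1 held neither motif, as did 1 of the 4 windows listed for MTHFD1L, of which the first is printed. A match is a run of letters and not a measured binding site, and elements outside these windows were not searched.

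All 3 serine synthesis enzymes fell in the myocilin line, and so did 2 of the 4 mitochondrial one-carbon enzymes, SHMT2 and MTHFD2. None of the 3 cytosolic one-carbon enzymes passed the test in either direction, at an adjusted or an unadjusted p of 0.05 in limma. In all, 5 of 10 enzymes fell and 0 rose, against 7.35% and 8.28% of all genes. At an unadjusted p below 0.05 in limma, 6 were lower and 0 higher. The share of all genes at that unadjusted limit was not counted, here or for the lists below. The median log2 difference, myocilin minus control, was -0.29 over the 10 enzymes and 0.02 over all genes. The myocilin arrays lay wholly below the control arrays for 6 enzymes, against 16.0% of all genes, and wholly above them for 0 enzymes, against 18.9% of all genes.

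**Figure D1:**
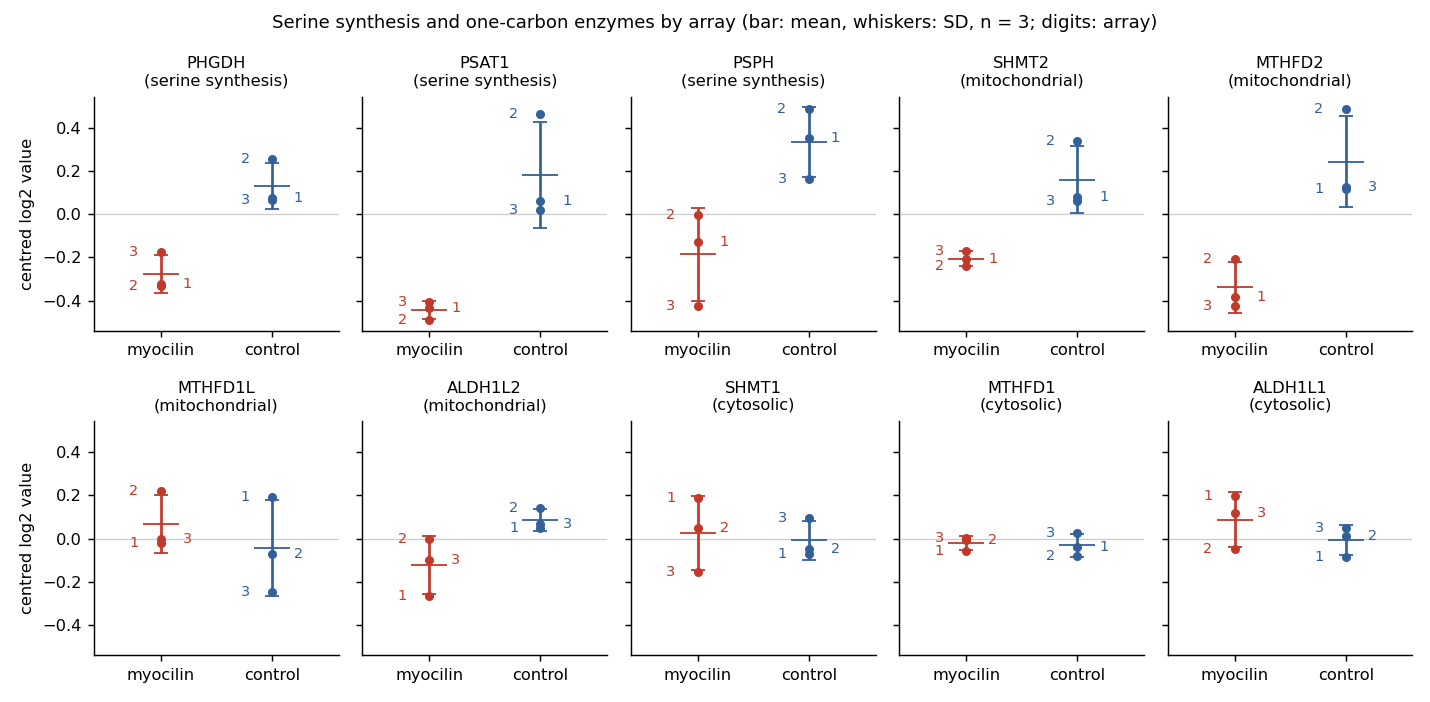
Centred log2 value of each enzyme on each array, myocilin arrays left and control arrays right in each panel, with the mean (bar) and SD (whiskers) of 3 arrays and the array number beside each point. The 2 lines are separated for PHGDH, PSAT1, PSPH, SHMT2, MTHFD2 and ALDH1L2, and control array 2 is the highest point in each of these 6 panels.

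PHGDH, 3-phosphoglycerate dehydrogenase, opens the serine pathway. Its probe set 201397_at read -0.32, -0.33 and -0.17 on the myocilin arrays, against 0.07, 0.25 and 0.06 on the control arrays. The lines did not overlap, and the least reduced myocilin array, array 3, still lay below every control array. The log2 difference was -0.41 ± 0.07 (SE), a myocilin level 0.754 times that of control with a 95% interval of 0.672 to 0.846 (limma adjusted p = 0.00665).

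PSAT1, phosphoserine aminotransferase, takes nitrogen from glutamate for the second step of the pathway and had the lowest log2 difference of the 10 enzymes. As the mean of its probe sets it read -0.44, -0.49 and -0.41 on the myocilin arrays, against 0.06, 0.46 and 0.02 on the control arrays. The myocilin arrays were close together, with an SD of 0.04, and the control arrays had an SD of 0.25 because array 2 stood above the others. The difference was -0.63 ± 0.11, or 0.648 times control with an interval of 0.548 to 0.766 (limma adjusted p = 0.00519), and it ranked 119 from the lowest of 18338 genes. Both probe sets fell, 220892_s_at by 0.73 and 223062_s_at by 0.52 on the log2 scale.

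PSPH, phosphoserine phosphatase, releases free serine in the last step. It read -0.13, -0.01 and -0.42 in the myocilin line, against 0.35, 0.48 and 0.16 in the control line. Here the spread lay in the myocilin arrays too, with array 2 nearest to the controls. The difference was -0.52 ± 0.11, or 0.698 times control with an interval of 0.584 to 0.834 (limma adjusted p = 0.0157). Its probe sets differed in size: 205048_s_at fell by 0.71 and 205194_at fell by 0.67, while 244819_x_at read -0.17 and did not pass (adjusted p = 0.32). The suffix _x_at marks probe sets that can match other transcripts. The gene's call was lost without control array 2, at -0.44 (adjusted p = 0.0579).

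SHMT2, the mitochondrial serine hydroxymethyltransferase, read -0.21, -0.24 and -0.17 in the myocilin line, against 0.08, 0.34 and 0.06 in the control line. The myocilin arrays differed among themselves by less than the distance to the nearest control array. The difference was -0.36 ± 0.08, or 0.777 times control with an interval of 0.686 to 0.879 (limma adjusted p = 0.0148). Of its 3 probe sets, 214095_at fell by 0.47 and 214437_s_at fell by 0.41, and 214096_s_at read -0.21 without passing (adjusted p = 0.15). The gene's call was lost, with a value that hardly moved, without myocilin array 1 (-0.36, adjusted p = 0.0508) and without myocilin array 2 (-0.35, adjusted p = 0.0522).

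MTHFD2 is the mitochondrial methylenetetrahydrofolate dehydrogenase and cyclohydrolase, abundant in embryonic and transformed cells and low in most adult tissues. It read -0.39, -0.21 and -0.43 on the myocilin arrays, against 0.12, 0.49 and 0.13 on the control arrays. Every myocilin array was below 0 and every control array above it. The difference was -0.58 ± 0.10, or 0.668 times control with an interval of 0.568 to 0.786 (limma adjusted p = 0.00647), ranked 144 from the lowest. Its probe sets both fell, 234976_x_at by 0.76 and 201761_at by 0.40 on the log2 scale. The larger value is from a probe set of the _x_at kind, and on 201761_at alone the gene was called at -0.40 (adjusted p = 0.0187).

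MTHFD1L, the mitochondrial synthetase that releases formate, was the mitochondrial enzyme with a positive difference. It read -0.02, 0.22 and 0.00 in the myocilin line, against 0.19, -0.07 and -0.25 in the control line, so the lines overlapped. The difference was 0.11 ± 0.11 (limma adjusted p = 0.565), and its interval, 0.907 to 1.28 times control, leaves room for a small change either way. This value rests on probe set 1561125_at alone and was 0.00668 to 0.23 with an array left out, lowest without control array 3 and highest without control array 1, and 0.02 with chromosomal neighbours subtracted. It was not called in any of these.

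ALDH1L2, the mitochondrial formyltetrahydrofolate dehydrogenase, read -0.27, -0.00223 and -0.10 in the myocilin line, against 0.05, 0.14 and 0.07 in the control line. The lines did not overlap, but the gene missed the threshold at -0.21 ± 0.07 (limma adjusted p = 0.0922), with an interval of 0.770 to 0.973 times control. Its 3 probe sets were unlike. The probe set 231202_at fell by 0.37 (adjusted p = 0.0493), with myocilin arrays at -0.18, -0.17 and -0.12 and control arrays at 0.02, 0.46 and 0.18. The other probe sets, 1556841_a_at at -0.14 and 1559393_at at -0.11, overlapped between the lines and did not pass. With 231202_at as the only probe set for the gene, ALDH1L2 was called (-0.37, adjusted p = 0.0432).

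The cytosolic counterparts lay near 0 on most arrays. SHMT1 read 0.19, 0.05 and -0.15 in the myocilin line, against -0.07, -0.05 and 0.10 in the control line, a difference of 0.04 ± 0.09 with an interval of 0.891 to 1.18 times control. MTHFD1, whose single protein carries 3 folate activities in the cytosol, read -0.06, -0.00708 and 0.00267 in the myocilin line, against -0.04, -0.08 and 0.03 in the control line. MTHFD1 differed by 0.01 ± 0.06, and its interval of 0.922 to 1.10 was the narrowest of the 10 on the log2 scale. Its value is the mean of probe sets of opposite sign, 202309_at at 0.10 and 239846_at at -0.07, neither of which passed (adjusted p = 0.478 and 0.562). The probe sets of SHMT1 read 0.02 and 0.06 and those of ALDH1L1 0.06 and 0.13, none past the threshold. ALDH1L1, the cytosolic formyltetrahydrofolate dehydrogenase, read 0.20, -0.05 and 0.12 in the myocilin line, against -0.08, 0.01 and 0.05 in the control line, a difference of 0.10 ± 0.07. Adjusted p-values in limma were 0.833 for SHMT1, 0.924 for MTHFD1 and 0.445 for ALDH1L1, and all 3 genes overlapped between the lines. The lower bounds of the 3 intervals, 0.891 for SHMT1, 0.922 for MTHFD1 and 0.950 for ALDH1L1, lie above the estimates for the 5 enzymes that fell, although centred values do not show whether these probe sets read above background.

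**Figure D2:**
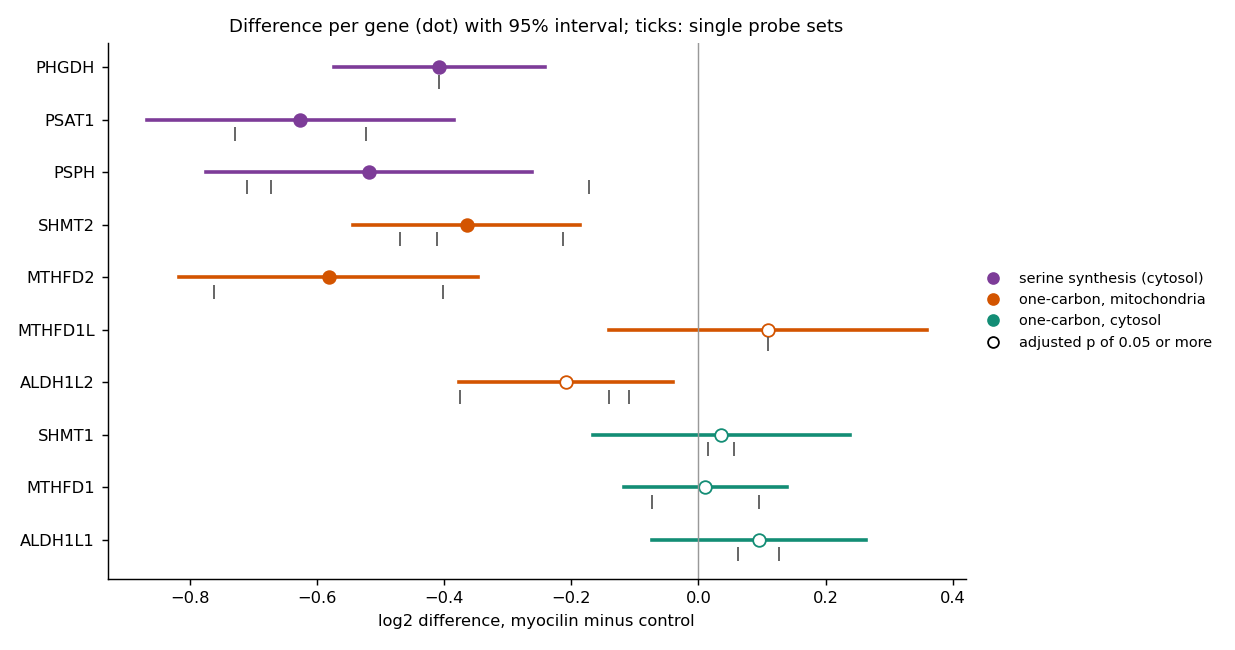
Log2 difference, myocilin minus control, of each enzyme (dot, filled where the limma adjusted p was below 0.05) with its 95% interval, and of each of its probe sets (grey ticks). The 5 filled dots lie between -0.63 and -0.36, and the 3 cytosolic one-carbon enzymes lie between 0.01 and 0.10.

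By probe set, 10 of the 21 fell and 0 rose, against 5.56% and 5.46% of all 41751 probe sets. Every probe set of PHGDH, PSAT1 and MTHFD2 fell, as did 2 of 3 for PSPH, 2 of 3 for SHMT2 and 1 of 3 for ALDH1L2. The myocilin arrays lay wholly below the control arrays for 11 of the 21 probe sets, against 14.8% of all probe sets. They lay wholly above them for 215798_at of ALDH1L1, which did not pass (limma adjusted p = 0.339). The share of all probe sets wholly above was not counted. The count of probe sets that fell was 5 without myocilin array 1 and 6 without myocilin array 3.

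Mitochondrial and cytosolic enzymes of the same reaction were compared within each array, as the mitochondrial value minus the cytosolic one, over 4 pairs. MTHFD2 minus MTHFD1 was -0.33, -0.20 and -0.43 in the myocilin line, against 0.16, 0.57 and 0.10 in the control line. This was the pair without overlap, with a shift between the lines of -0.59 ± 0.16 (SE) and a two-sided exact permutation p = 0.1, the smallest that 3 arrays against 3 allow. SHMT2 minus SHMT1 was -0.39, -0.29 and -0.02 in the myocilin line, against 0.15, 0.39 and -0.04 in the control line, a shift of -0.40 ± 0.17 (exact p = 0.2). Its overlap came from myocilin array 3 and control array 3, on which SHMT1 was the lowest of the myocilin line and the highest of the control line.

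The other pairs, like that of SHMT2, overlapped between the lines. ALDH1L2 minus ALDH1L1 was -0.46, 0.05 and -0.22 in the myocilin line, against 0.13, 0.13 and 0.02 in the control line, a shift of -0.30 ± 0.15 (exact p = 0.2). MTHFD1L minus MTHFD1 shifted by 0.10 ± 0.16 (exact p = 0.7), with full overlap. Adjusted over the 4 pairs, the exact permutation p-values were 0.267 for 3 pairs and 0.7 for MTHFD1L. With 3 arrays per line no pair could have reached 0.05, so these p-values do not show that the compartments changed alike or unlike, and the shifts stand as values with their errors.

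**Figure D3:**
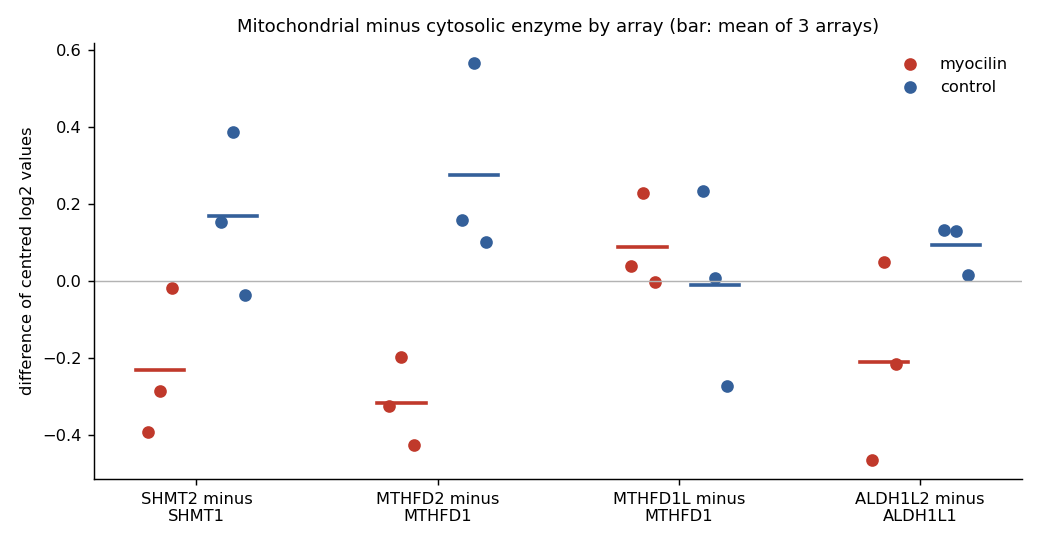
Mitochondrial minus cytosolic enzyme on each array as a difference of centred log2 values, for 4 pairs, myocilin arrays left and control arrays right, with the mean of 3 arrays as a bar. The lines are apart for MTHFD2 minus MTHFD1 and overlap for the other pairs.

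Control array 2 stood above the other control arrays for each of the 5 enzymes that fell and for 6 of the 10 enzymes, against 33.6% of all genes. The mean of PHGDH, PSAT1 and PSPH was -0.30, -0.28 and -0.34 on the myocilin arrays, against 0.16, 0.40 and 0.08 on the control arrays. The mean of the 4 mitochondrial enzymes was -0.22, -0.06 and -0.17 on the myocilin arrays, against 0.11, 0.22 and 0.0013 on the control arrays. The mean of the 3 cytosolic one-carbon enzymes was 0.11, -0.00269 and -0.01 on the myocilin arrays, against -0.07, -0.04 and 0.06 on the control arrays, and did not follow control array 2. Without that array the differences were -0.49 for PSAT1, -0.46 for MTHFD2, -0.35 for PHGDH and -0.28 for SHMT2, all still past the threshold in limma (adjusted p = 0.0038, 0.0113, 0.0217 and 0.0268), while PSPH was lost as given above.

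Genes that carry serine and glycine across membranes mostly fell. Of 8 measured, 6 fell and 0 rose in limma (0 higher also at an unadjusted p below 0.05), against 7.35% and 8.28% of all genes, with a median of -0.35 against 0.02 over all genes. SLC6A9, the glycine transporter GLYT1, fell by 1.13 ± 0.18 on the log2 scale, with -0.58, -0.77 and -0.41 in the myocilin line, against 0.47, 1.00 and 0.17 in the control line (adjusted p = 0.00377). SLC1A4, an exchanger of alanine, serine and cysteine, fell by 0.72 ± 0.09 (adjusted p = 0.00134), and SLC38A2, a sodium-coupled neutral amino acid transporter, fell by 0.72 ± 0.09 (adjusted p = 0.00097). SLC1A4 depended on its probe sets and read -0.12 without those ending in _x_at or _s_at (adjusted p = 0.367). SLC6A9 was read by 1 probe set, and both SLC6A9 and SLC38A2 were read only by probe sets with these endings. SLC38A1 fell by 0.33 (adjusted p = 0.0294) but was called in 2 of the 6 fits that left out an array. It was not called with chromosomal neighbours subtracted (adjusted p = 0.0606). Of the mitochondrial carriers, SFXN1, a serine transporter, read -0.11 (adjusted p = 0.324) and SFXN3 read 0.09 (adjusted p = 0.36). SLC25A38, a glycine carrier, fell by 0.22 (adjusted p = 0.0408), a call lost whichever array was left out (adjusted p up to 0.121). SLC38A1 and these carriers were named after their values were seen.

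Among 8 measured genes of the serine-use list, 2 fell and 1 rose, against the same 7.35% and 8.28% of all genes. Those that fell are the transsulfuration enzymes, which together make cysteine from serine and homocysteine. CBS takes up the serine and fell by 0.41 ± 0.08 (limma adjusted p = 0.0107). CTH acts on the product of CBS, not on serine, and fell by 0.94 ± 0.13 (limma adjusted p = 0.00202). PTDSS1, a phosphatidylserine synthase, rose by 0.20 (adjusted p = 0.0472), a call lost whichever array was left out (adjusted p up to 0.138). CBS was not called with 1 probe set picked by its ID (-0.32, adjusted p = 0.127), and the serine palmitoyltransferase subunits SPTLC1 and SPTLC2, named after their values were seen, read 0.06 and 0.03 without passing.

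A few folate and methyl genes were called in each direction, against 8.28% of all genes higher and 7.35% lower. Counts from lists this short do not show a movement of these genes as a class. SLC25A32, the mitochondrial folate carrier, rose by 0.38 ± 0.08 (adjusted p = 0.0114) as 1 of 6 genes of folate uptake and retention, with 0.00, 0.07 and -0.11 in the myocilin line, against -0.32, -0.53 and -0.32 in the control line. TYMS, thymidylate synthase, fell by 0.39 ± 0.06 (adjusted p = 0.00252) and MTFMT, the mitochondrial formyltransferase of initiator methionyl-tRNA, fell by 0.30 ± 0.06 (adjusted p = 0.0125). TYMS read -0.13 after the median of its 50 chromosomal neighbours was subtracted and was then not called (adjusted p = 0.158). They were 2 of 3 measured folate cycle genes, and the other 3 listed were not analysed here. In the methionine cycle, MAT2A, which makes S-adenosylmethionine, fell by 0.33 (adjusted p = 0.0249), and MTRR, the reductase that keeps methionine synthase active, rose by 0.23 (adjusted p = 0.0269), out of 5. With each of the 6 arrays left out in turn, MAT2A was called 3 times and MTRR 1 time.

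Glycine cleavage, which also feeds mitochondrial folate, had 1 rise and 1 fall among 4 genes, GCSH at 0.19 (adjusted p = 0.0462) and DLD at -0.25 (adjusted p = 0.0235). GCSH was called in 0 and DLD in 2 of the 6 fits that left out an array, and GCSH read 0.04 with chromosomal neighbours subtracted. De novo purine synthesis, a main consumer of formate, had 0 rises and 0 falls among 6 genes in limma, with a median of 0.06, and 2 of them were higher at an unadjusted p below 0.05. Over the 7 lists 40 of 45 genes were measured, of which 12 fell, 4 rose and 24 did not pass, with a median of -0.0031 against 0.02 over all genes. Against the 7.35% and 8.28% of all genes, the falls are the more numerous, but both counts depended on the arrays and probe sets. The rises numbered 1 without myocilin array 1, myocilin array 3, control array 1 or control array 2. Without _x_at and _s_at probe sets SLC25A32, MTRR, GCSH and PTDSS1 were not measured, so the count of 0 there tests nothing. The falls numbered 8 to 11 with an array left out and 6 with 1 probe set per gene. Without _x_at and _s_at probe sets they numbered 7, but MAT2A, SLC38A2 and SLC6A9 were then not measured. SLC1A4 and SLC25A38 were measured there and not called (limma adjusted p = 0.367 and 0.0613).

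A list of 8 genes, regulators of these enzymes together with the glycolytic enzyme PKM, had 5 falls, PKM among them, and 1 rise. This compares with 7.35% and 8.28% of all genes, and the list median was -0.38 against 0.02 over all genes. Results of these data were known when this list was drawn up. TRIB3, a target of ATF4 that inhibits it, fell by 0.80 ± 0.10 (adjusted p = 0.000921), and ATF5, a related factor, fell by 0.45 ± 0.06 (adjusted p = 0.00117). The C/EBP partners CEBPB and CEBPG, named after their values were seen, fell by 0.72 ± 0.12 (adjusted p = 0.00457) and by 0.49 ± 0.10 (adjusted p = 0.00994). ATF4 itself, also named after its value was seen, read -0.14, -0.11 and 0.01 in the myocilin line, against 0.07, 0.23 and 0.08 in the control line. Its difference of -0.21 ± 0.07 did not pass in limma (adjusted p = 0.0726), although the lines did not overlap. ATF4 is controlled largely through translation, which arrays do not read.

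MYC, which can activate serine and one-carbon genes, went the other way from the enzymes. It rose by 0.67 ± 0.08 (limma adjusted p = 0.000836), with 0.52, 0.54 and 0.47 in the myocilin line, against -0.19, -0.29 and 0.00261 in the control line. The MYC value rests on 1 probe set, which ends in _x_at or _s_at. PKM, the pyruvate kinase downstream of the point where serine synthesis leaves glycolysis, fell by 0.30 ± 0.07 (adjusted p = 0.0155), named after its value was seen, and was lost without 1 of the 6 arrays (adjusted p = 0.0525).

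**Figure D4:**
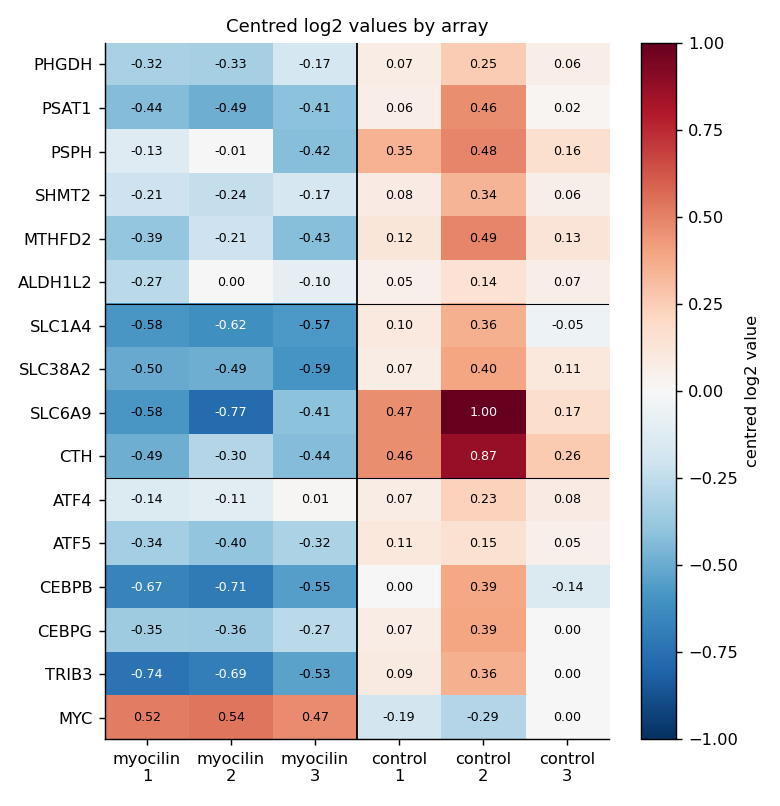
Centred log2 values on each array for 6 of the enzymes, 4 genes of the transport and serine-use lists and 6 regulators. The rows were chosen for display after their values were seen, and myocilin arrays lie left of control arrays. Control array 2 is the highest array in every row but that of MYC, where it is the lowest.

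Markers of growth and of other cells were read beside these values. Of 6 proliferation markers 1 rose, MKI67 at 0.19 (adjusted p = 0.0392), and 0 fell in limma, against 8.28% and 7.35% of all genes, and at an unadjusted p below 0.05, 3 were higher and 2 lower. The MKI67 call was lost whichever array was left out (adjusted p up to 0.133). Of 5 measured kidney lineage genes 1 rose, WT1 at 0.28, called in 1 of 6 fits that left out an array. Of 6 neuronal genes 2 rose, NEFM at 1.42 and INA at 0.35. The NEFM value is the mean of 2 unlike probe sets, of which 1 alone read 2.66. INA read 0.20 with chromosomal neighbours subtracted and was then not called (limma adjusted p = 0.064). Fibroblast markers had 1 rise among 5, COL1A1 at 0.25, called in 2 of those 6 fits, and leukocyte markers 0 among 3, with 1 higher at an unadjusted p below 0.05. Summed levels and absent markers cannot be read from centred values, and the part of any of these in the fall of the enzymes was not tested.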

How the data were processed

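The authors deposited a table of log2 values for 6 arrays. Their base was inferred here, and the steps before deposit are not stated in the labels. Array medians are 0 and exact zeros occur in 57.3% of probe sets, so values were apparently centred by probe set. Arrays were grouped by source name; nothing pairs them. Of the probe sets, 37460 had 1 annotated gene, and 37416 took a current RefSeq symbol (GRCh38.p14) by Entrez identifier. Probe sets were averaged per gene. Lines were compared with limma 3.58.1 (lmFit, eBayes, two-sided) in R 4.3.3 over all genes and all probe sets, with Benjamini-Hochberg adjustment at 0.05; the fit was tested on simulated data. Enzyme pairs were compared by exact permutation over arrays. The enzymes and lists were chosen with earlier results of these data known. The text names all 10 enzymes, MYOC, up to 3 called genes per list by p and the 5 genes nearest to each of 2 mean profiles; others are marked. Alternatives were quantile normalisation, median centring, trend and robust eBayes, array weights, omission of _x_at and _s_at probe sets, other gene summaries, subtraction of 50 chromosomal neighbours and omission of each array.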

Additional observations from a re-analysis of the deposited data

How the results depend on the processing

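PHGDH, PSAT1 and MTHFD2 were called lower under every alternative that measured them, at -0.46 to -0.35, -0.73 to -0.49 and -0.65 to -0.40, and PSPH and SHMT2 lost their calls only as given in the report. The count of enzymes called was 4 without _x_at and _s_at probe sets, where PSAT1 has none left, 6 with 1 probe set per gene, 4 to 5 with an array left out and 5 otherwise. Called enzyme probe sets numbered 5 to 9 with an array left out, the fewest without myocilin array 1 (5) and array 3 (6). Genes called over the whole table, 2866 with all arrays, were 1878 without _x_at and _s_at probe sets, which tests fewer genes, and were 1613 to 2220 with an array left out: 1613 without myocilin array 1, 1905 without myocilin array 2 and 1889 without control array 2. Other pathway genes that fell, 12, were 6 with 1 probe set per gene and 8 to 11 with an array left out. They were 7 without _x_at and _s_at probe sets, where MAT2A, SLC38A2 and SLC6A9 were not measured. Other pathway genes that rose, 4, were 1 with 1 probe set per gene, 1 with chromosomal neighbours subtracted and 1 to 3 with an array left out. The count was 1 without myocilin array 1, myocilin array 3, control array 1 or control array 2, and 2 without myocilin array 2. It was 0 without _x_at and _s_at probe sets, where none of the 4 was measured. Beyond the fewer probe sets or arrays, the cause was not tested. Uncalled values near 0 changed sign: SHMT1 to -0.044 without myocilin array 1 (-0.044 to 0.127 over arrays left out), MTHFD1 to -0.00504 with array weights, -0.000967 without myocilin array 3 and -0.014 without control array 2 (-0.014 to 0.040), and the shift of MTHFD1L minus MTHFD1 to -0.028 with neighbours subtracted and -0.033 without control array 3, with a range of -0.033 to 0.22 over arrays left out. The shifts of the other pairs kept their sign, at -0.51 to -0.29 for SHMT2, -0.68 to -0.45 for MTHFD2 and -0.43 to -0.18 for ALDH1L2 with an array left out. The planned filter on dim probe sets was not run, since centred values carry no brightness. No paired analysis was possible because the labels give the lines no shared replicate numbers.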

Other observations

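Outside the enzymes, the genes whose centred profile over the 6 arrays lay nearest to the mean profile of PHGDH, PSAT1 and PSPH were ZNF233, NDC80, PPP4R1, TMEM260 and KDM4A, at root mean square distances of 0.0382 to 0.042 log2 units. NDC80, a kinetochore protein gene, read -0.27, -0.31 and -0.37 in the myocilin line, against 0.19, 0.37 and 0.15 in the control line. Nearest to the mean profile of SHMT2, MTHFD2, MTHFD1L and ALDH1L2 were HLCS, PDE8B, RCN1, PLXNA2 and SDK1, at 0.0273 to 0.0339. HLCS, which attaches biotin to carboxylases, read -0.37, -0.25 and -0.27 in the myocilin line, against -0.05, 0.08 and -0.14 in the control line. None of these 10 genes is on the lists of the pathway.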
